A study of Arabidopsis thaliana with 8 samples.

Results

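Calmodulins and calmodulin-like proteins are small calcium sensors of plant cells, and the transcripts of 39 such genes of Arabidopsis thaliana were followed in roots that had or had not been given ATP. The members were chosen by locus identifier, namely the 7 conserved calmodulin genes CAM1 to CAM7 and 32 calmodulin-like (CML) genes, among them the touch-inducible genes TCH2 and TCH3. All 39 were found among the 33544 loci of the deposited tables. The study asked how the heterotrimeric G protein α subunit takes part in the response of roots to extracellular ATP, an avoidance of the side where ATP is applied. It therefore compared gpa1-2, a null mutant of the α subunit gene GPA1, with its wild type, the accession Wassilewskija (WS).

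The 4 groups were gpa1-2 with ATP, gpa1-2 untreated, WS with ATP and WS untreated. All were roots, in the methods only their tips, of seedlings that the labels give as 4 d old, and ATP was given for 60 min. The labels name 2 samples for each of the 4 groups, 8 in all, but the tables hold 1 value per group. Whether that value joins both samples is not stated in the sources used here. There was thus no spread between replicates and no test could be made. The untreated roots were taken before treatment, and ATP, the transfer to the treatment and the passage of 60 min therefore cannot be told apart. The ATP concentration is not in the labels. One mutant line stood for the loss of the α subunit. The value columns are named by number only, so that the group of each follows from the description of the tables and from the direction of their ratios. GPA1 transcripts were at 31.1 and 28.6 FPKM in gpa1-2 with and without ATP, against 46.5 and 51.9 FPKM in WS with and without ATP, which is lower in the mutant but not absent.

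A rise of Ca2+ in the cytosol is one of the earliest known answers of a plant cell to extracellular ATP, touch, cold or a pathogen. Calmodulin binds Ca2+ through loops called EF hands, changes its shape and then attaches to target proteins such as kinases, pumps, channels and transcription factors. The conserved calmodulins differ from each other in few residues, while the CML proteins vary in sequence and in number of EF hands and have no known activity besides binding Ca2+ and a target. Several CML genes are known as touch genes, whose transcripts rise within minutes of mechanical stimulation.

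The steps between low values in the tables gave back 11769896 to 13482612 reads per group, of which the 39 members held 0.289 to 0.341%. Reads in these tables did not behave as independent counts, so every 95% counting interval below was computed on read numbers divided by 2, and it covers counting error only, not the spread between plants. Levels are given as FPKM, mapped fragments scaled by exon length and library size, which allows comparison between genes of different length. The root markers PIN2, SHR, SCR, WOX5, PLT1, COBL9 and RHD6 were all at 1 FPKM or more in each group, and their summed level was 187.0 FPKM with ATP and 104.0 FPKM without it in gpa1-2, and 213.6 FPKM with ATP and 110.1 FPKM without it in WS. PIN2 and WOX5 held most of this rise. With and without ATP, PIN2 was at 65.0 and 36.3 FPKM in gpa1-2 and at 90.5 and 40.6 FPKM in WS. WOX5 was at 48.1 and 5.29 FPKM in gpa1-2 and at 50.1 and 2.64 FPKM in WS. RHD6 was lower with ATP in gpa1-2, and COBL9 was lower with ATP in WS. The shoot markers RBCS1A, LHCB1.1 and LHCB2.1 summed to 1.22 FPKM with ATP and 7.29 FPKM without it in gpa1-2, and to 2.29 FPKM with ATP and 5.33 FPKM without it in WS. Their part in the results on calmodulins was not tested. In such bulk root samples, fewer cells of a type and less RNA per cell cannot be told apart.

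The levels of the 39 sensors spanned a wide range. Averaged over the 4 groups, 15 members (38.5%) were at 100 FPKM or more, 16 at 10 to 100 FPKM, 5 at 1 to 10 FPKM and 3 (7.69%) under 1 FPKM. Of all 33544 genes, 6.01% were at 100 FPKM or more and 41.8% under 1 FPKM. The highest mean levels were those of CAM2 at 560.6 FPKM, CAM1 at 500.2 FPKM, CAM3 at 466.0 FPKM and CAM4 at 440.6 FPKM. The next was CML27 at 371.3 FPKM, a calmodulin-like gene above 3 of the 7 conserved calmodulins. At the low end, CML17 (AT1G32250) and AT2G15680 were listed at 0 in all 4 groups and CML15 (AT1G18530) had 1, 0, 0 and 1 reads, and these 3 genes entered no comparison. Summed over all 39 members, the level was 5941 FPKM with ATP and 5060 FPKM without it in gpa1-2, a ratio of 1.17 (1.15 to 1.20), and 4819 FPKM with ATP and 5399 FPKM without it in WS, a ratio of 0.893 (0.874 to 0.911). The summed level thus moved in opposite directions in the mutant and the wild type.

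**Figure D1:**
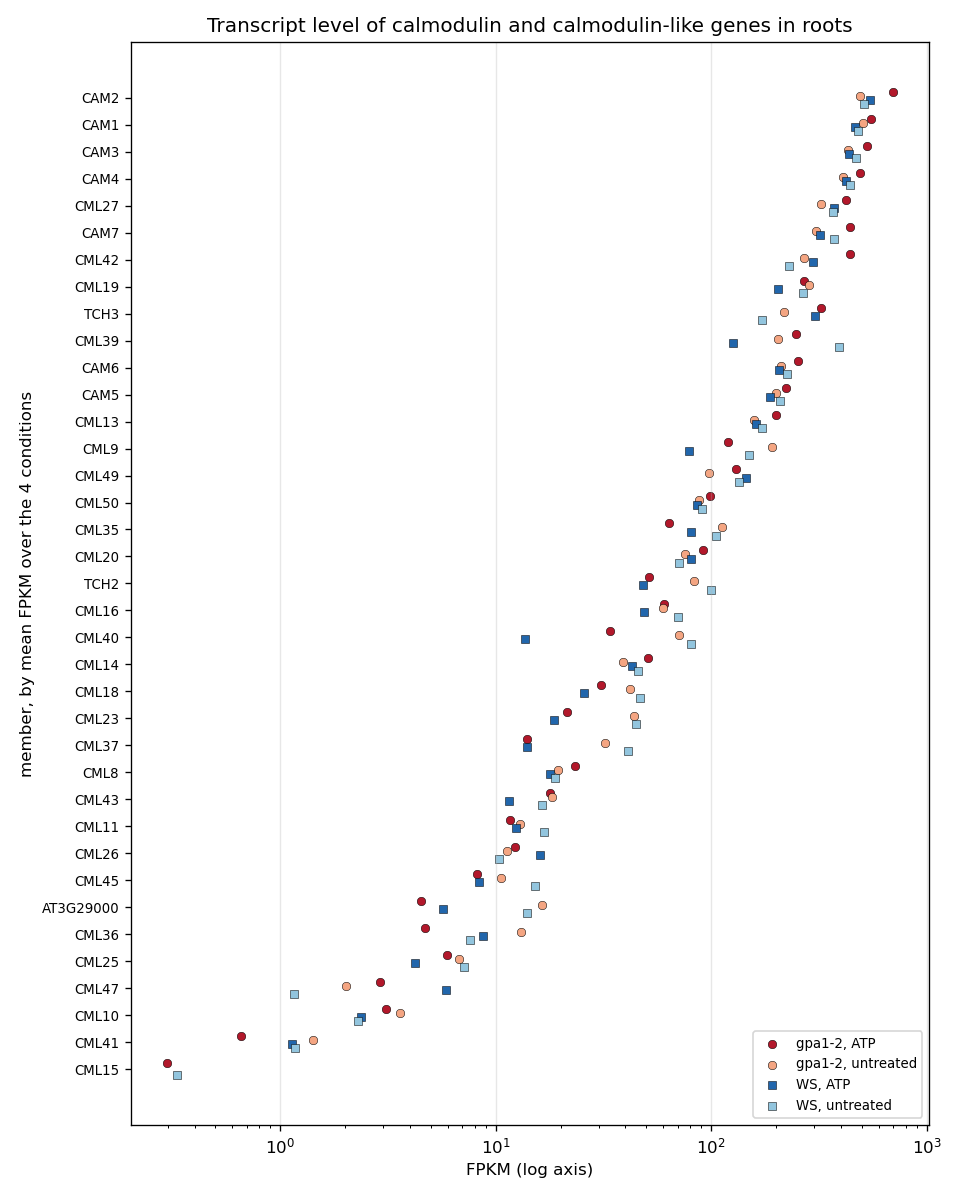
Transcript level (FPKM, log axis) of each member in roots of gpa1-2 (circles) and WS (squares), with ATP in the darker and untreated in the lighter colour, 1 value per group. Values of 0 are not drawn. Members are ordered by their mean level, and CAM2 at 560.6 FPKM stands at the top; CML40 shows the widest spread among members with a mean above 10 FPKM, and the WS roots given ATP are at the low end for CML39 and CML40.

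To compare treated with untreated roots, untreated values of log2(FPKM + 1) were subtracted from ATP-treated ones, and this difference is called the response. A member was said to rise or fall where the response was at least 1 in size among genes with 1 FPKM or more in either condition. In gpa1-2, 0 members rose and 4 of 36 fell (CML36, CML37, CML40 and AT3G29000), while 3.6% of 19865 genes rose and 3.78% fell (7.38% in either direction, and 5.92% of those with at least 20 reads). In WS, 1 member rose (CML47) and 6 of 36 fell (CML23, TCH2, CML37, CML39, CML40 and AT3G29000), while 3.75% of 19901 genes rose and 4.28% fell (8.02% in either direction, and 6.34% of those with at least 20 reads). Falls therefore outnumbered rises among the sensors in both genotypes, and CML37, CML40 and AT3G29000 fell in both. The median response of the 36 members was 0.13 in gpa1-2 and -0.11 in WS, against 0.03 and -0.01 over all genes of the 2 comparisons. Next to the threshold, CML40 at -1.04 lay inside and CML23 at -0.99 outside in gpa1-2, and TCH2 at -1.03 lay inside and CML9 at -0.92 outside in WS. With 5 in place of 1 FPKM added before the logarithm, CML36, CML37 and CML40 in gpa1-2 and TCH2, CML47 and AT3G29000 in WS were under 1 in size.

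**Figure D2:**
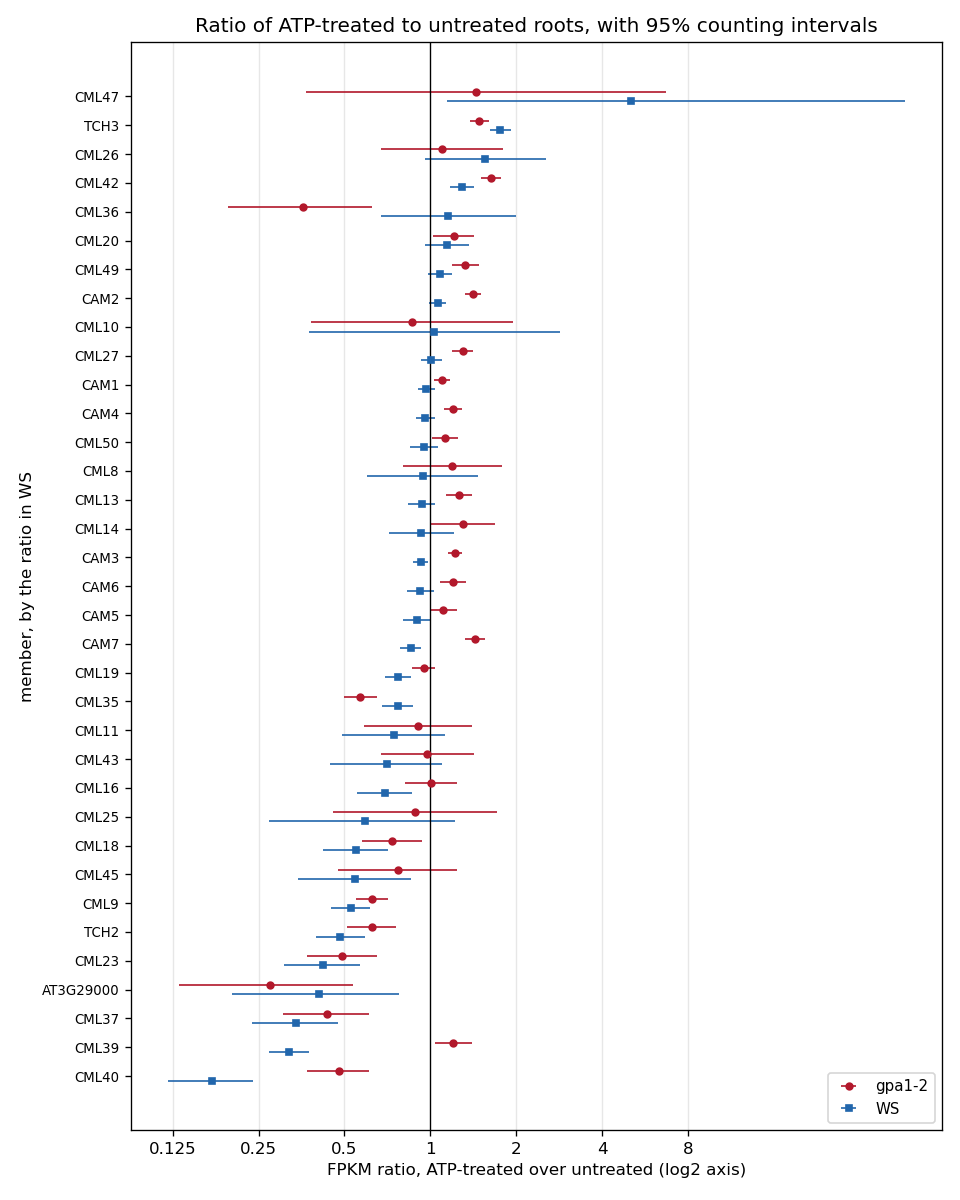
Ratio of FPKM with ATP over untreated (log axis) for the 35 members with at least 20 reads in each genotype, gpa1-2 as circles and WS as squares, with 95% counting intervals computed on the recovered reads divided by 2. The 7 conserved calmodulins lie above 1 in gpa1-2 and all of them but CAM2 lie below 1 in WS. Of their intervals, that of CAM5 in gpa1-2 and those of all but CAM3 and CAM7 in WS include 1. The intervals of CML39, like those of several other members, do not overlap between the genotypes. How often this held among all genes was not counted.

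The conserved calmodulins made up 53.6 and 50.5% of the members' FPKM in gpa1-2 with and without ATP, and 53.5 and 50.1% in WS with and without ATP. None of them reached the threshold in either genotype, but they differed between genotypes in the same sense. All 7 were higher with ATP than without it in gpa1-2, as against 52.9% of all genes kept. In WS CAM2 alone was higher, as against 49.1% of all genes kept. The counting intervals of the ratio in WS included 1 for all but CAM3 and CAM7, and in gpa1-2 that of CAM5 did. The summed level of the 7 was 3183 FPKM with ATP and 2553 FPKM without it in gpa1-2, a ratio of 1.25 (1.21 to 1.28), against 2577 FPKM with ATP and 2708 FPKM without it in WS, a ratio of 0.952 (0.925 to 0.980). The 7 genes encode near-identical proteins. How reads were divided among these genes was not examined here, and the sum is less open to any error in that division.

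CAM7 (AT3G43810), which encodes a calmodulin also known to bind DNA at light-responsive promoters, differed most among the 7. It was at 441.0 FPKM with ATP and 307.2 FPKM without it in gpa1-2, and at 318.1 FPKM with ATP and 372.6 FPKM without it in WS. The mutant roots given ATP had the highest level of the 4 groups and the untreated mutant roots the lowest. The ratio was 1.44 (1.33 to 1.55) in gpa1-2 and 0.854 (0.786 to 0.927) in WS, and the difference in response was 0.75 on the log2 scale, with a counting interval of 0.59 to 0.91. CAM2 (AT2G41110), the most abundant member, was at 694.2 FPKM with ATP and 490.7 FPKM without it in gpa1-2, against 544.4 FPKM with ATP and 513.3 FPKM without it in WS. Its ratio was 1.41 (1.33 to 1.51) in gpa1-2 and 1.06 (0.990 to 1.14) in WS, and so the gpa1-2 roots given ATP again stood above the other 3 groups, which lay close together.

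CAM3 (AT3G56800) had its groups in the order seen for CAM7, at 526.6 FPKM with ATP and 431.1 FPKM without it in gpa1-2, and at 435.3 FPKM with ATP and 470.9 FPKM without it in WS. CAM1 (AT5G37780), CAM4 (AT1G66410), CAM5 (AT2G27030) and CAM6 (AT5G21274) had responses of 0.13 to 0.26 in gpa1-2 and of -0.16 to -0.04 in WS. For these genes the highest level was in gpa1-2 with ATP too, at 553.9, 492.4, 223.1 and 251.5 FPKM, each above the other 3 groups. The difference in response of the 7 genes ran from 0.18 for CAM1 to 0.75 for CAM7, and each counting interval lay above 0.

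Among the CML genes closest to calmodulin, CML8 to CML12, TCH3 was higher with ATP in both genotypes. TCH3 (CML12, AT2G41100) is a touch-inducible gene whose product carries additional EF hands and binds the auxin-related kinase PINOID. It was at 323.0 FPKM with ATP and 217.2 FPKM without it in gpa1-2, and at 304.3 FPKM with ATP and 172.7 FPKM without it in WS. Both treated groups were above both untreated groups, and the ratio was 1.49 (1.38 to 1.60) in gpa1-2 and 1.76 (1.63 to 1.91) in WS. CML9 (AT3G51920), known for roles in abscisic acid and defence responses, went the other way, with 119.3 FPKM with ATP and 191.4 FPKM without it in gpa1-2, and 78.8 FPKM with ATP and 149.8 FPKM without it in WS. Its ratios of 0.623 (0.548 to 0.708) in gpa1-2 and 0.526 (0.449 to 0.615) in WS were short of the threshold in both. CML8 (AT4G14640) lay between 17.8 and 23.3 FPKM, CML11 (AT3G22930) between 11.7 and 16.7 FPKM and CML10 (AT2G41090) between 2.30 and 3.59 FPKM, and the counting interval of each ratio of ATP-treated to untreated roots included 1.

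CML13 and CML14, whose products are known to bind the IQ motifs of myosins and other proteins, resembled most of the conserved calmodulins in the direction of their responses. CML13 (AT1G12310) was at 199.3 FPKM with ATP and 158.4 FPKM without it in gpa1-2, and at 161.0 FPKM with ATP and 172.7 FPKM without it in WS. CML14 (AT1G62820) was at 50.7 FPKM with ATP and 39.0 FPKM without it in gpa1-2, and at 42.7 FPKM with ATP and 45.9 FPKM without it in WS. In both genes the mutant roots given ATP were the highest group and the untreated mutant roots the lowest. The counting interval of the ratio in WS included 1 for both, at 0.835 to 1.04 for CML13 and 0.715 to 1.21 for CML14. For CML14 the interval of the difference in response, -0.03 to 1.00, included 0.

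CML18 (AT3G03000) is known to bind the tail of the vacuolar sodium/proton exchanger NHX1. It was at 30.8 FPKM with ATP and 41.9 FPKM without it in gpa1-2, and at 25.7 FPKM with ATP and 46.9 FPKM without it in WS, so that both treated groups were below both untreated ones. CML16 (AT3G25600) was at 60.2 FPKM with ATP and 59.8 FPKM without it in gpa1-2, against 48.8 FPKM with ATP and 70.4 FPKM without it in WS. Only in WS did the counting interval of its ratio, 0.693 (0.555 to 0.864), lie away from 1, and in gpa1-2 the ratio was 1.01 (0.815 to 1.24). The centrin CML19 (AT4G37010), whose product takes part in DNA excision repair, was at 268.4 FPKM with ATP and 283.1 FPKM without it in gpa1-2, and at 204.5 FPKM with ATP and 266.1 FPKM without it in WS. The other centrin, CML20 (AT3G50360), was at 91.4 FPKM with ATP and 75.5 FPKM without it in gpa1-2, and at 80.9 FPKM with ATP and 70.5 FPKM without it in WS. The WS roots given ATP thus had the lowest level of CML19, while both treated groups were highest for CML20.

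CML23 and TCH2 (CML24) encode a pair of similar sensors known for roles in nitric oxide accumulation and flowering time, and both had lower levels with ATP. CML23 (AT1G66400) was at 21.5 FPKM with ATP and 43.7 FPKM without it in gpa1-2, and at 18.7 FPKM with ATP and 44.6 FPKM without it in WS. TCH2 (AT5G37770) was at 51.7 FPKM with ATP and 83.0 FPKM without it in gpa1-2, and at 48.2 FPKM with ATP and 99.5 FPKM without it in WS. Treated and untreated groups did not overlap for either gene. CML23 fell in WS (-1.21, ratio 0.419, 0.307 to 0.567) and its response was -0.99 in gpa1-2 (ratio 0.492, 0.369 to 0.651). TCH2 likewise fell in WS (-1.03) and its response in gpa1-2 was -0.67. Hence the touch genes TCH2 and TCH3, named for one stimulus, stood on opposite sides of 0 after ATP in both genotypes.

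The CML25 to CML30 set stayed short of the threshold in both genotypes. CML27 (AT1G18210) was at 421.8 FPKM with ATP and 324.5 FPKM without it in gpa1-2, and at 371.0 FPKM with ATP and 367.7 FPKM without it in WS, so that the ratio was 1.30 (1.20 to 1.41) in gpa1-2 and 1.01 in WS, where the interval included 1. CML25 (AT1G24620), known from pollen tube growth, lay between 4.20 and 7.13 FPKM. CML26 (AT1G73630) lay between 10.3 and 16.1 FPKM, and all intervals for both included 1.

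CML35 and CML36 encode a pair of related sensors, and the response of both was the lower one in gpa1-2. CML36 (AT3G10190), whose product is known to bind the plasma membrane Ca2+ pump ACA8, was at 4.68 FPKM with ATP and 13.1 FPKM without it in gpa1-2, and at 8.77 FPKM with ATP and 7.59 FPKM without it in WS. It fell in gpa1-2 (-1.31, ratio 0.357, 0.196 to 0.626) and its response was 0.19 in WS (ratio 1.16, 0.670 to 2.00). The untreated mutant had the highest and the treated mutant the lowest level, with both WS groups between them. These values rest on 37 and 96 reads in gpa1-2 with and without ATP and 64 and 54 reads in WS. CML35 (AT2G41410) was at 63.5 FPKM with ATP and 111.6 FPKM without it in gpa1-2, and at 80.8 FPKM with ATP and 105.2 FPKM without it in WS, and its responses were -0.80 in gpa1-2 and -0.38 in WS.

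The set from CML37 to CML47 held most of the members past the threshold. CML37 (AT5G42380), a known positive regulator of jasmonate defence against herbivores, was at 14.0 FPKM with ATP and 32.2 FPKM without it in gpa1-2, and at 13.9 FPKM with ATP and 41.2 FPKM without it in WS. AT3G29000 was at 4.50 FPKM with ATP and 16.4 FPKM without it in gpa1-2, and at 5.69 FPKM with ATP and 14.0 FPKM without it in WS. Both genes fell in both genotypes, CML37 by 1.15 in gpa1-2 and 1.50 in WS on the log2 scale, and AT3G29000 by 1.66 in gpa1-2 and 1.16 in WS. For both, the counting interval of the difference in response included 0.

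CML39 (AT1G76640), a gene known from seedling establishment, had the largest difference in response of all members. It was at 247.1 FPKM with ATP and 205.0 FPKM without it in gpa1-2, and at 125.5 FPKM with ATP and 392.6 FPKM without it in WS. The WS groups thus took the lowest and the highest place, and the mutant groups lay between them and close together. The ratio was 1.21 (1.04 to 1.40) in gpa1-2 and 0.320 (0.271 to 0.376) in WS, and the difference in response was 1.91 on the log2 scale (counting interval 1.60 to 2.23). CML40 (AT3G01830) was at 33.8 FPKM with ATP and 70.7 FPKM without it in gpa1-2, and at 13.7 FPKM with ATP and 80.2 FPKM without it in WS. It fell in both genotypes, with a ratio of 0.478 (0.371 to 0.612) in gpa1-2 and 0.171 (0.120 to 0.239) in WS, which was the largest fall of a member, and the difference in response was 1.42 (0.89 to 2.07). CML40 overlaps 2 other annotated genes, and the FPKM per deposited scaled count of CML40 itself differed by 16.7% between groups.

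CML42 (AT4G20780), a known negative regulator of herbivore defence that also has a role in trichome branching, was at 438.1 FPKM with ATP and 268.3 FPKM without it in gpa1-2, and at 297.6 FPKM with ATP and 229.8 FPKM without it in WS. Its response of 0.71 in gpa1-2 was the highest of the 36 members there, with a ratio of 1.63 (1.50 to 1.77) in gpa1-2 against 1.30 (1.18 to 1.43) in WS. CML42 and CML37, which are known to act in opposite directions in herbivore defence, were thus on opposite sides of 0 in both genotypes. CML43 (AT5G44460) lay between 11.6 and 18.3 FPKM and CML45 (AT5G39670) between 8.18 and 15.3 FPKM, both lowest with ATP in their genotype. CML41 (AT3G50770), known from callose deposition at plasmodesmata, had 5 to 10 reads per group.

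CML47 (AT3G47480), known from salicylic acid dependent immunity, was at 2.91 FPKM with ATP and 2.01 FPKM without it in gpa1-2, and at 5.85 FPKM with ATP and 1.15 FPKM without it in WS. It was the one member that rose in WS (1.67), but on 26 reads with ATP and 5 reads without it, and the counting interval of the ratio was 1.15 to 46.2. The penta-EF-hand genes CML49 and CML50 were above 80 FPKM in all groups. CML49 (AT3G10300) was at 129.8 FPKM with ATP and 97.8 FPKM without it in gpa1-2, and at 144.8 FPKM with ATP and 133.9 FPKM without it in WS, so that the untreated mutant alone stood low. CML50 (AT5G04170) lay between 86.3 and 98.4 FPKM.

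The difference in response, gpa1-2 minus WS, was at least 1 in size for 4 of 36 members, as against 5.83% of 20350 genes (2.8% higher and 3.03% lower in gpa1-2) and 3.71% of those with at least 20 reads. It was higher in gpa1-2 for CML39 and CML40 and lower for CML36 (-1.50, counting interval -2.77 to -0.62) and CML47. For CML47 it was -1.29 with a counting interval of -4.60 to 0.97, which holds 0, and -0.65 with 5 in place of 1 FPKM added before the logarithm. With 1 value per group this difference could not be tested. Counting all 36 members whatever the size, the difference was above 0 for 28 (77.8%), as against 53.7% of all genes, and its median was 0.32 against 0.03. Of the 35 members that reached 20 reads in both gpa1-2 and WS, 13 were lower with ATP in both genotypes, 8 were higher in both, 12 were higher in gpa1-2 and lower in WS, and 2 (CML36 and CML10) were lower in gpa1-2 and higher in WS. This split was not counted over all genes, of which 52.9% were above 0 in gpa1-2 and 49.1% in WS. Among the 12, the counting interval of the WS ratio lay away from 1 only for CAM3, CAM7, CML16 and CML39. For CML36 and CML10 the WS interval included 1. Pearson's r between the responses in the 2 genotypes was 0.62 over the 35 members and 0.65 over the 19062 genes with as many reads, where genes of a genotype share the same samples.

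**Figure D3:**
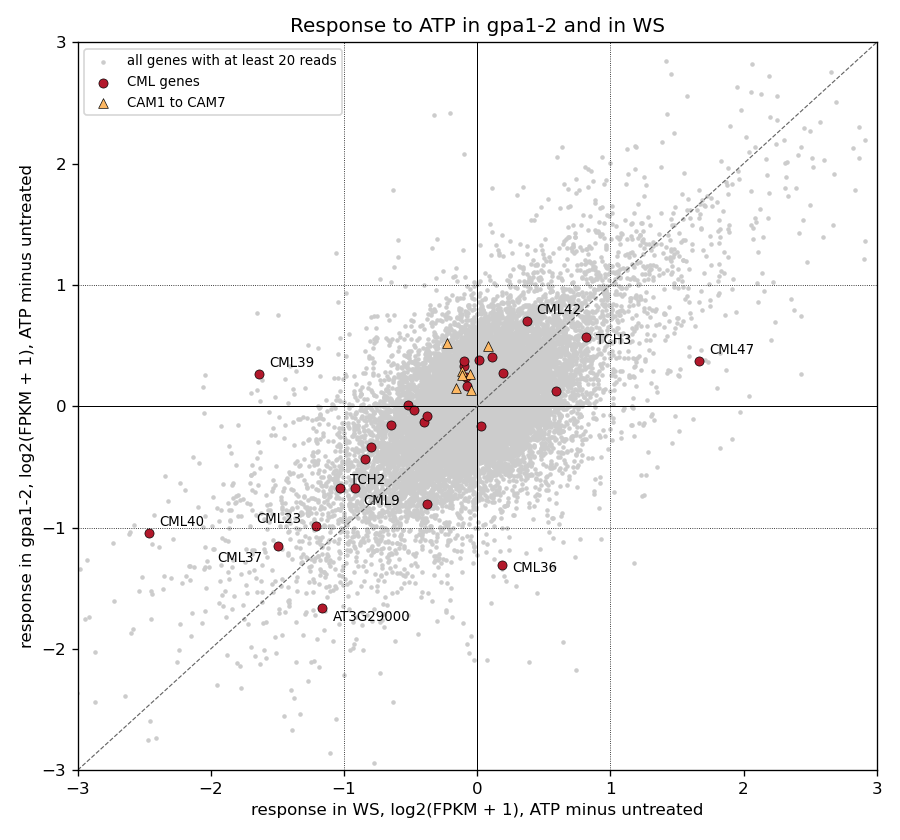
Response to ATP in gpa1-2 (vertical) against WS (horizontal), each as the log2(FPKM + 1) difference of ATP-treated minus untreated, for genes reaching 20 reads in gpa1-2 and in WS; CAM1 to CAM7 are triangles and the CML members circles over all genes in grey, dotted lines mark 1 in size, the dashed line marks equal response, and 32 genes lie outside the axes, which end at 3 in size. Of the 35 members shown, 28 lie above the dashed line, and CML39 lies farthest above it.

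Setting the genotypes side by side within a treatment uses the same 4 values again, and levels are here compared across tables whose joint scaling is not stated. After ATP, 1 of 36 members reached the threshold, CML40 at 33.8 FPKM in gpa1-2 and 13.7 FPKM in WS, as against 2.67% of 19774 genes (1.29% higher in gpa1-2) and 1.02% of those with at least 20 reads. The median difference, gpa1-2 minus WS, was 0.25 for the members and 0.01 for all genes, and the members' summed level was 1.23 times as high in gpa1-2 (1.21 to 1.26). Close to the threshold, CML39 was 1.97 times as high in treated gpa1-2 as in treated WS (1.66 to 2.34). In untreated roots 0 of 36 members reached the threshold, as against 2.18% of 19826 genes and 0.631% of those with at least 20 reads, with a median of -0.06 for the members and -0.02 for all genes. CML39 was then lower in gpa1-2, at 0.522 times its level in WS (0.455 to 0.599), and CML36 was higher, at 1.72 times (1.05 to 2.87). The order of the genotypes was thus reversed between treated and untreated roots for CML39, and CML36 was reversed the other way.

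Several members lie side by side on a chromosome, and the members of such a pair differed in their response. TCH2 lies next to CAM1, and CML23 next to CAM4, so each gene of the nitric oxide related pair neighbours a conserved calmodulin. With ATP, TCH2 and CML23 were lower in both genotypes, while CAM1 and CAM4 were at 0.13 and 0.26 in gpa1-2 and at -0.04 and -0.06 in WS on the log2 scale. TCH3 lies next to CML10 and is separated from CAM2 by AT2G41105, a gene that overlaps TCH3. TCH3 was higher with ATP in both genotypes, and CAM2 was so mainly in gpa1-2. The counting in these tables is not stated to use strand, so reads of overlapping genes cannot be told apart, and 12 members overlap another annotated gene.

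CML39 lies next to CML38, a calmodulin-like gene outside the members that is known from low-oxygen responses, and this pair was examined after the values had been seen. CML38 was at 135.8 FPKM with ATP and 144.4 FPKM without it in gpa1-2, and at 106.2 FPKM with ATP and 264.2 FPKM without it in WS. As for CML39, the WS groups were the lowest and the highest. The response of CML38 was -0.09 in gpa1-2 and -1.31 in WS, a difference of 1.22 on the log2 scale.

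**Figure D4:**
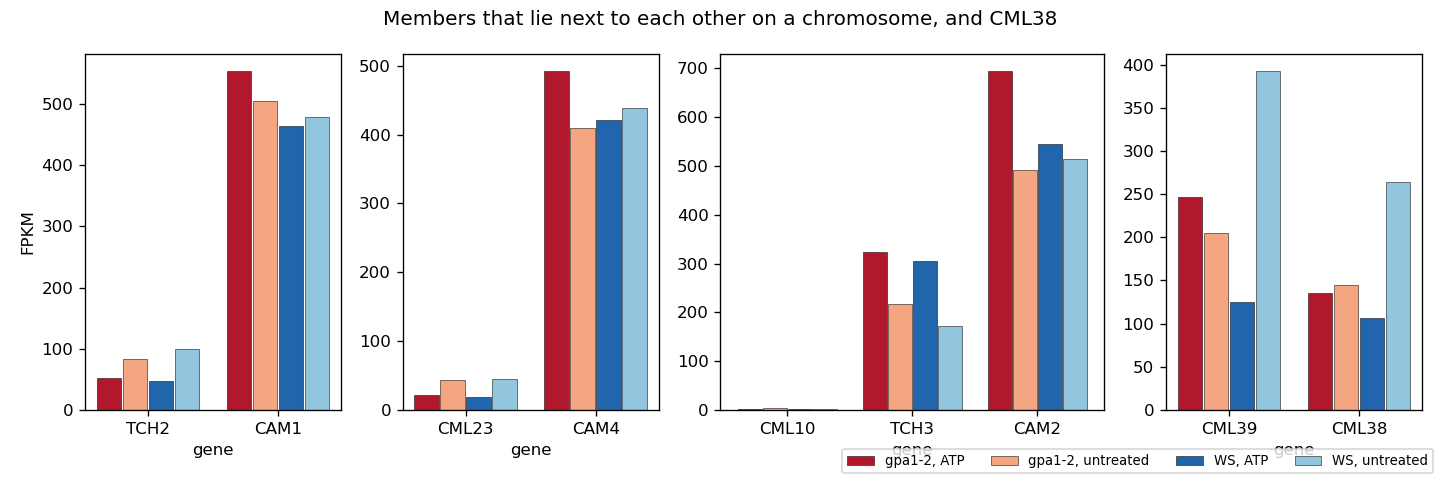
Transcript level (FPKM, bars from 0) of neighbouring genes in roots of gpa1-2 and WS with ATP and untreated, 1 value per bar and a vertical scale of its own in each panel. The gene between TCH3 and CAM2 is not drawn, and CML38 is not a member. The bars of CML39 and CML38 have the same order in WS, 392.6 and 264.2 FPKM untreated being the highest bars of the pair.

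Other calcium sensors were counted in the same way. Of 18 further CML genes, 10 passed the filter in gpa1-2 and 9 in WS. CML5, CML7 and CML38 fell in WS, and CML28 rose in both genotypes on 1 and 2 reads with ATP. In gpa1-2 the response was -0.99 for CML5 (ratio 0.496, 0.407 to 0.603) and -0.88 for CML7 (ratio 0.510, 0.260 to 0.966), close to the threshold. Of 10 calcineurin B-like (CBL) genes, whose products bind Ca2+ and activate protein kinases, 8 passed the filter in gpa1-2 and 9 in WS, and CBL1 fell in both genotypes. CBL1 was at 93.0 FPKM with ATP and 199.6 FPKM without it in gpa1-2, and at 51.2 FPKM with ATP and 253.9 FPKM without it in WS, an order of groups that CML40 shared. CBL4, known from salt tolerance, rose in WS (1.12) and had a response of 0.97 in gpa1-2. CBL7 fell in WS on 6 reads without ATP and 0 with it. A further list held 9 genes, the 6 CAMTA genes with CBP60A, CBP60G and SARD1. Of these, 8 passed the filter in each genotype, 0 rose, and SARD1 alone passed the threshold, in WS (-1.03). Over all genes, 7.38% changed in gpa1-2 and 8.02% in WS, and with so few genes a list these counts are given as a description. The products of the 6 CAMTA genes bind calmodulin and DNA. These genes had a difference in response of -0.58 to -0.27, the opposite side of 0 from the conserved calmodulins. Over all genes kept, 53.7% were above 0. Of the others of that list that passed the filter, CBP60A was also below 0, at -0.10. SARD1 was at 1.08, past the threshold, on 9 to 35 reads per group. TCH4, a touch gene that encodes a xyloglucan-modifying enzyme and no calcium sensor, was at 49.9 FPKM with ATP and 19.6 FPKM without it in gpa1-2, and at 57.6 FPKM with ATP and 35.8 FPKM without it in WS. It was higher with ATP in both genotypes, as TCH3 was and TCH2 was not.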

How the data were processed

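Roots of gpa1-2 and WS were profiled with and without ATP. The deposited tables hold, for each genotype, a scaled gene count, treated here as a signal because it is not whole, and FPKM, which the authors scaled by exon length and library size. The methods describe array hybridisation and the labels name MAS5, which give no such values; aligner, annotation and build are not given in the sources used here. Columns of the authors' fold changes, directions, p-values and FDR were not used, and no such column of another sample was found (0 left unused).

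The steps of the scaled counts deposited by the authors gave back reads: 98.9 to 99.2% of values up to 20 reads were whole within 0.1 read. In each column 78.2 to 86.4% of genes with 16 reads split evenly, against 19.6% for independent parts. Intervals (Clopper-Pearson, 95%) therefore used reads divided by 2. The log2(FPKM + 1) values were computed here from the deposited FPKM. Genes with 1 FPKM in either condition were kept, and a difference of 1 was counted. No p-value was computed. The counting was tested on simulated independent reads. The recovered reads were not independent, so that simulation cannot show how well the intervals cover here.

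Every member is named, with the genes past the threshold in full. Members and lists were chosen with earlier results of these data known. Names came from the tables' protein descriptions and RefSeq (TAIR10.1), which held 32797 of 33544 loci; 2 loci with conflicting names are given by locus. Alternatives were the pseudocount, filter, threshold and scaling. Python 3.11.15, numpy 2.4.6, pandas 2.3.3 and scipy 1.17.1 were used.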

Additional observations from a re-analysis of the deposited data

Results flagged for a closer look

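For CML36 and CML39 the value moved one way with ATP in gpa1-2 and the other way in WS. The counting interval of the CML36 ratio in WS, 0.670 to 2.00, included 1. The response in gpa1-2 minus that in WS was -1.50 for CML36 and 1.91 for CML39 on the log2(FPKM + 1) scale. This difference was not tested, since each group has 1 value.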

How the results depend on the processing

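Counts of members past the threshold were 4 of 36 in gpa1-2, 7 in WS, 4 for the difference in response, 1 between genotypes with ATP and 0 without it. They stayed within 1.5 times these counts with a pseudocount of 0.1 FPKM, a minimum of 10 FPKM or of 20 reads, no filter, upper-quartile scaling and median centring. With a pseudocount of 5 FPKM the count was 1 in gpa1-2 and 4 in WS. With a threshold of 2 it was 0 in gpa1-2, 1 in WS, 0 for the difference in response and 0 between treated genotypes. CML23 in gpa1-2 passed at -1.02 with a pseudocount of 0.1 FPKM, -1.04 with upper-quartile scaling and -1.02 with median centring. All 7 conserved calmodulins kept a higher response in gpa1-2 under both scalings, which were tried for this count after seeing the data. No direction was reversed among the results recomputed. No paired analysis was possible because the columns carry no replicate numbers, and for the same reason no replicate could be left out. Low read numbers, under 100 in each group, limit CML10, CML25, CML26, CML36, CML41, CML47 and AT3G29000 among the members compared. The difference in response of CML47 was -0.65 with a pseudocount of 5 FPKM.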
